A study of Mus musculus with 8 samples.

Results

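Macrophages in skeletal muscle were followed through 10 marker genes: Cd68, Adgre1, Csf1r, Lyz2, Mrc1, Cd163, Cd14, Trem2, Mertk and Axl. They were taken by gene symbol from the gene table of tibialis anterior (TA) muscle, as a list of known markers put together with earlier results of these data known. All 10 were found among the 16686 genes of the table, and all 10 passed the filter on low counts that left 12542 genes for testing. RNA came from whole TA muscle of 8 male FVBN mice, aged 22 months by the sample labels, with 4 WT Old mice and 4 C2-/- Old mice and 1 library for each mouse. C2-/- Old mice are a constitutive knockout of fast skeletal myosin binding protein-C, in which exons 2 to 22 of Mybpc2 were replaced by a Neo cassette flanked by loxP sites. WT Old mice carry the intact gene, and the labels name no treatment in either group. The question put to these genes was whether macrophage transcripts differ between aged muscle with and without this sarcomere protein.

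Macrophages are phagocytes that live between muscle fibres and around vessels, where they clear dead cells and debris and take part in repair after injury. Csf1r receives the survival signals Csf1 and Il34. Cd68 is a lysosomal membrane protein, Lyz2 is the lysozyme of myeloid cells, and Adgre1 encodes the F4/80 antigen. Mrc1 is the mannose receptor, Cd163 takes up haemoglobin bound to haptoglobin, Cd14 is a co-receptor for bacterial lipopolysaccharide, and Trem2 senses lipids and signals through Tyrobp. Mertk and Axl are receptor tyrosine kinases that recognise dying cells through Gas6, and Mertk also does so through Pros1. Axl is also made by fibroblasts and endothelial cells, so its level in whole muscle is not that of macrophages alone. Lyz2, as a gene of myeloid cells, is not confined to macrophages either.

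Library totals ran from 25425993 to 29747692 counts per mouse, so that 3 counts, taken as the detection floor, correspond to 0.104 to 0.116 counts per 1000000 counts of the scaled library (CPM). The floor covers counting error only. The targeted gene Mybpc2 was at 4964, 5450, 5101 and 7392 CPM in WT Old mice 1 to 4 and at 4.35, 4.02, 38.3 and 3.85 CPM in C2-/- Old mice 1 to 4. Mouse 3 of the C2-/- Old group stands apart from its group for Mybpc2, although it remains far below every WT Old mouse. WT Old mice 2 and 4 and C2-/- Old mouse 2 stood apart in 6 immediate early genes, whose summed level was 543, 1227 and 762 CPM in them and 34.9 to 83.1 CPM in the other mice. WT Old mouse 2 also stood apart in 10 neutrophil genes, summed to 60 CPM against 2.08 to 11.4 CPM in the others.

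No macrophage marker differed between the genotypes after adjustment over all 12542 genes. A gene was called at an adjusted p under 0.05 and a change above 1.5-fold (edgeR quasi-likelihood test with Benjamini-Hochberg adjustment). That rule called 0 of the 10 markers and 4 of all genes, which is 0.0319% of those tested. At an unadjusted p under 0.05 the test gave 2 markers, Trem2 and Axl, beside 663 of all genes or 5.29%. DESeq2 gave the same number of markers at an unadjusted p under 0.05 and none after adjustment. Both markers were higher in C2-/- Old muscle, a direction in which 3.38% of all genes reached that p, and 1.91% reached it in the other. Trem2 alone was also more than 1.5-fold higher, as were 2.05% of all genes, and 0 markers were lower by as much, against 0.981%. For both Trem2 and Axl the lowest C2-/- Old value exceeded the highest WT Old value, which held for 2.03% of all genes. None of the markers was lower without overlap, against 1.36% of all genes. The log2 fold change was above 0 for 7 of the 10 markers and for 45.8% of all genes. The median log2 fold change was 0.31 for the markers and -0.02 for all genes tested. The median of the markers depended on single mice, and was 0.13 without WT Old mouse 1, 0.18 without WT Old mouse 4, 0.15 without C2-/- Old mouse 3 and 0.48 without WT Old mouse 3.

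**Figure D1:**
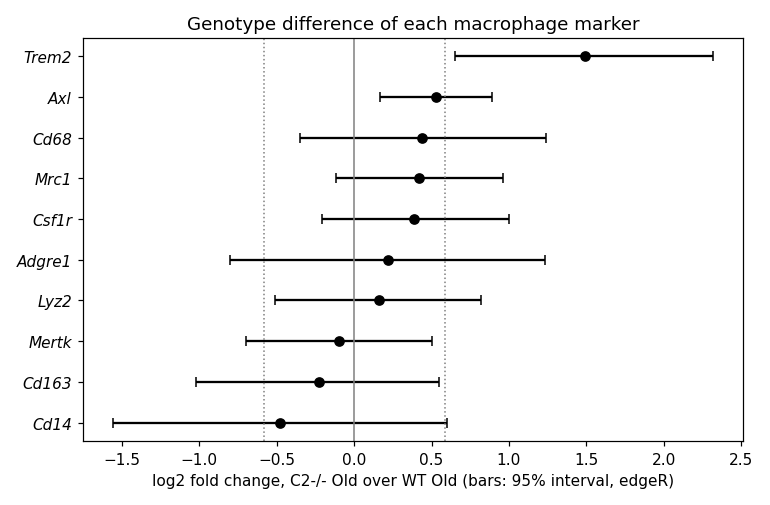
Log2 fold change of each macrophage marker, C2-/- Old over WT Old, on the x axis, with the genes on the y axis, points for edgeR estimates and bars for 95% intervals (n = 4 mice per group). The solid line marks no difference and the dotted lines a 1.5-fold change in either direction; the intervals of Trem2 (0.65 to 2.32) and Axl (0.17 to 0.89) lie above 0 and the other 8 include it.

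Trem2, on chromosome 17 (GRCm38.p6, 17:48346401-48352276, plus strand), showed the widest genotype difference of the 10 markers. Its level was 0.347, 0.401, 0.336 and 0.326 CPM in WT Old mice 1 to 4 and 0.871, 0.93, 1.6 and 0.589 CPM in C2-/- Old mice 1 to 4. All 4 C2-/- Old mice were above all 4 WT Old mice, and C2-/- Old mouse 3 was the highest. These levels rest on few reads: 9, 11, 9 and 9 counts in WT Old muscle and 23, 25, 45 and 17 counts in C2-/- Old muscle. The fitted difference was 2.8-fold (95% interval 1.57 to 5), a log2 fold change of 1.49 (SE 0.38), with an edgeR p of 0.00258 before and 0.571 after adjustment. By that p Trem2 was at rank 55 of the genes tested. The two-sided exact permutation test of its log2 CPM gave p = 0.0286, the smallest value that 4 mice against 4 can give. Groups of 4 that do not overlap always give this p, so it adds nothing to the lack of overlap. The WT Old values varied by 9.53% (CV), which is less than the 32.4% that counting error alone gives at this depth, so their closeness does not measure the spread between mice. In C2-/- Old muscle the CV was 42.8%, against 19.1% from counting. In whole muscle, more macrophages and more of a transcript in each macrophage cannot be told apart.

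Axl, on chromosome 7 (7:25756500-25788733, minus strand), was at 27.8, 20.5, 31.4 and 19.5 CPM in WT Old mice and at 37.2, 32.4, 35.4 and 37.9 CPM in C2-/- Old mice. The lowest C2-/- Old mouse lay just above the highest WT Old mouse. The means were 24.8 ± 5.77 and 35.8 ± 2.45 CPM (SD, n = 4 in each group). The difference was 1.44-fold (95% interval 1.12 to 1.85), with a log2 fold change of 0.53 (SE 0.16), an edgeR p of 0.0084 and an adjusted p of 0.732, at rank 141. The exact permutation p was 0.0286, which the lack of overlap fixes here too. Without WT Old mice 2 and 4 and C2-/- Old mouse 2, an alternative chosen after seeing the data, the log2 fold change of Axl was 0.32 and its unadjusted edgeR p was 0.0507. Axl lies on the same chromosome as the targeted gene Mybpc2, 18.7 Mb away.

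The promoters of Trem2 and Axl are shown because their values did not overlap between the genotypes, and that of Cd68 because it is a lineage marker whose groups overlap. They come from RefSeq (GRCm38.p6), which gave windows of 250 bases before to 50 bases after the start for 7 of the 10 markers. Capitals mark the letters GAGGAA or TTCCTC, the core recognised by the myeloid factor PU.1, and TGACTCA or TGAGTCA, the AP-1 site. The windows are 17:48346151-48346450 (plus strand) for Trem2, 7:25788684-25788983 (minus strand) for Axl and 11:69666121-69666420 (minus strand) for Cd68, each written 5′ to 3′ in the direction of the gene.
Trem2: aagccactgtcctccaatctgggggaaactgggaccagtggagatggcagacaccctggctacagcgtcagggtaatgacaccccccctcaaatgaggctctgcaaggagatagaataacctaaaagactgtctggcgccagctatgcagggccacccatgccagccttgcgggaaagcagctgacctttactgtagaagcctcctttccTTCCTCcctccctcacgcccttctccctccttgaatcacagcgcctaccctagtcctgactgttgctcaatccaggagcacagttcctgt
Axl: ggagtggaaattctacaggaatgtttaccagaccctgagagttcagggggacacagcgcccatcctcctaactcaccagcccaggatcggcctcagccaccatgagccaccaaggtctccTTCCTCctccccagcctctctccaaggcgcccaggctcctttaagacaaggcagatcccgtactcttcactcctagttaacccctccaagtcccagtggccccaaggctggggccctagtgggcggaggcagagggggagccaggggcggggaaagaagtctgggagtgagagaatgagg
Cd68: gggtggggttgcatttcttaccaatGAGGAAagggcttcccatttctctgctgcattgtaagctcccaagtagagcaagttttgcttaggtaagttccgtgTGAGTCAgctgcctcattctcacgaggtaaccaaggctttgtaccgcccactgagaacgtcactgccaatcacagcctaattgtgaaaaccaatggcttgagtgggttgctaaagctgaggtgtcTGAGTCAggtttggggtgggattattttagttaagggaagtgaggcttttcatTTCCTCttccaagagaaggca

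The PU.1 core was present in 4 of the 7 windows, those of Mrc1, Axl, Cd68 and Trem2, and in 28.3% of 32851 mouse promoters of the same length. It began 40 bases before the start in Trem2 (position -40), at position -130 in Axl, and at positions -225 and 29 in Cd68. The AP-1 letters were found in the window of Cd68 alone among the 7, at positions -149 and -24, and in 5.2% of all promoters. The E-box CACGTG was in none of the 7 and in 7.15% of all promoters. The motifs were searched on both strands and do not overlap in the windows shown. Trem2 and Axl, the markers higher without overlap, and Cd68 and Mrc1, whose groups overlap, all hold the PU.1 letters. A match describes letters in a window and does not show binding.

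**Figure D2:**
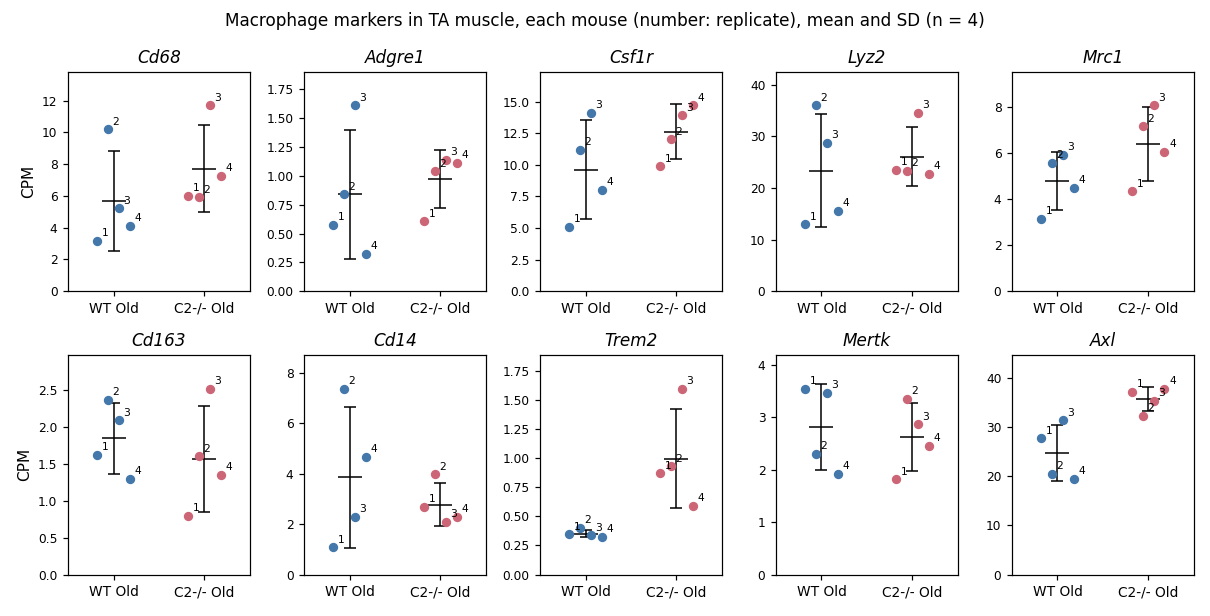
CPM of each macrophage marker (y axis, linear, a scale for each gene) in WT Old and C2-/- Old muscle (x axis), with 1 numbered point per mouse, the mean as a horizontal line and the SD as a bar (n = 4). The points of the genotypes do not overlap for Trem2 and Axl, and they overlap for the other 8 genes.

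The 4 pan-macrophage markers each had a higher fitted mean in C2-/- Old muscle, and none passed the test. Cd68 (11:69664213-69666170) was at 3.16, 10.2, 5.23 and 4.13 CPM in WT Old mice and 6.02, 5.91, 11.7 and 7.25 CPM in C2-/- Old mice. Mouse 2 of the WT Old group, the mouse with the most neutrophil RNA, was above 3 of the 4 C2-/- Old mice. Its log2 fold change was 0.44 (95% interval -0.35 to 1.24, edgeR adjusted p = 0.968). Without WT Old mouse 2 the log2 fold change of Cd68 was 0.90 and its unadjusted p fell below 0.05, and without C2-/- Old mouse 3 it was 0.17.

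Csf1r (chromosome 18, 18:61096644-61131139) was at 5.09, 11.2, 14.1 and 8.04 CPM in WT Old mice and 9.88, 12, 13.9 and 14.7 CPM in C2-/- Old mice. WT Old mouse 3 was within the C2-/- Old range and WT Old mouse 1 was the lowest of all. The log2 fold change was 0.39 (interval -0.21 to 1.0, edgeR adjusted p = 0.968), and it was 0.65 without WT Old mouse 3 and 0.18 without WT Old mouse 1. Exons of Csf1r overlap those of Hmgxb3 on the opposite strand, and the sources used here do not say that reads were counted by strand.

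Lyz2, the highest of the 10 per length of transcript, was at 13, 36, 28.8 and 15.6 CPM in WT Old mice and at 23.5, 23.3, 34.6 and 22.7 CPM in C2-/- Old mice. The WT Old values enclosed the whole C2-/- Old range. Its log2 fold change was 0.16 (interval -0.51 to 0.82, edgeR adjusted p = 0.987). Reads of Lyz2 are uncertain, because its transcript is 96% identical to that of the neighbouring Lyz1 (1211 of 1262 aligned bases) and the deposited interval of Lyz2 (10:117266597-117292909) holds that of Lyz1. Lyz1 itself was at 2.68 to 6.27 CPM in WT Old and 2.32 to 4.92 CPM in C2-/- Old muscle.

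Adgre1 (17:57358651-57483529), which encodes F4/80, was among the lowest markers per length of transcript. Its levels were 0.578, 0.839, 1.61 and 0.326 CPM in WT Old and 0.606, 1.04, 1.14 and 1.11 CPM in C2-/- Old mice. WT Old mice held both the highest and the lowest value. The log2 fold change was 0.22 with an interval from -0.80 to 1.23 (edgeR adjusted p = 0.987). The WT Old values varied by 66.1% (CV), against 21.1% from counting.

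The scavenger receptors split in direction. Mrc1 (2:14229414-14332023) was at 3.16, 5.58, 5.94 and 4.49 CPM in WT Old mice and 4.35, 7.18, 8.09 and 6.07 CPM in C2-/- Old mice, with a log2 fold change of 0.42 (interval -0.12 to 0.96, edgeR adjusted p = 0.968). Of the C2-/- Old mice, 3 were above every WT Old mouse and mouse 1 was not. Cd163 (6:124304630-124330529) was at 1.62, 2.37, 2.09 and 1.3 CPM in WT Old mice and 0.795, 1.6, 2.52 and 1.35 CPM in C2-/- Old mice. The lowest and the highest Cd163 level were both in C2-/- Old muscle, and the log2 fold change was -0.23 (interval -1.02 to 0.55, edgeR adjusted p = 0.983). Single mice moved both: Cd163 was at -0.56 without C2-/- Old mouse 3, -0.36 without WT Old mouse 4, -0.08 without WT Old mouse 2 and -0.01 without C2-/- Old mouse 1. Mrc1 was at 0.27 without WT Old mouse 1 and at 0.58 without C2-/- Old mouse 1, where its unadjusted p fell below 0.05.

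Cd14 (18:36725064-36726815), which serves in the recognition of lipopolysaccharide, was the most variable marker in WT Old muscle. Its levels were 1.08, 7.37, 2.28 and 4.67 CPM in WT Old and 2.69, 3.98, 2.09 and 2.29 CPM in C2-/- Old mice. WT Old mice 2 and 4 and C2-/- Old mouse 2 held the 3 highest values, and these are the same 3 mice in which the immediate early genes stood apart. The log2 fold change was -0.48 (interval -1.56 to 0.60, edgeR adjusted p = 0.968). It was 0.05 without WT Old mouse 2 and 0.49 without those 3 mice, the opposite sign in each case. The part of the neutrophil and immediate early levels in Cd14 was not tested.

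Mertk (2:128698915-128803162), the other receptor for dying cells, had a log2 fold change close to 0. It was at 3.55, 2.3, 3.47 and 1.92 CPM in WT Old mice and 1.82, 3.35, 2.87 and 2.46 CPM in C2-/- Old mice, and the C2-/- Old range lay almost inside that of WT Old muscle. The log2 fold change was -0.10 (interval -0.70 to 0.50, edgeR adjusted p = 0.989).

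Compared per length of transcript, in the deposited TPM, which scale counts by transcript length and by library, Lyz2 was the highest marker, with a median of 44.7 TPM over the 8 mice. Axl followed at 15.5, Cd68 at 9.4, Csf1r at 5.7 and Cd14 at 2.9 TPM. Mrc1 was at 1.97, Mertk at 1.13, Trem2 at 0.875, Cd163 at 0.685 and Adgre1 at 0.585 TPM. Lyz2 exceeded Axl, and Cd68 exceeded Csf1r, in 8 of 8 mice. The lowest neighbours could not be ordered: Mertk was above Trem2 in 4 of 8 mice, Trem2 above Cd163 in 5, and Cd163 above Adgre1 in 5. Against the TPM of all tested genes, Lyz2 was at percentile 83.6 and Adgre1 at percentile 7.82, so most of the markers are minor transcripts of whole muscle.

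Ratios within a mouse were formed for Trem2 and Axl, which were taken because their levels did not overlap, so the ratios describe that pattern further and carry no test. The ratio of Trem2 to Cd163 was 0.214, 0.169, 0.161 and 0.25 in WT Old mice and 1.1, 0.581, 0.634 and 0.436 in C2-/- Old mice. The ratio of Trem2 to Mertk was 0.0978, 0.175, 0.0968 and 0.17 in WT Old and 0.479, 0.278, 0.556 and 0.239 in C2-/- Old mice. In neither ratio did the genotypes overlap, and the C2-/- Old values were the higher. The other 7 ratios of Trem2 to a marker overlapped between genotypes, and so did all 9 ratios of Axl. The WT Old ratios of Trem2 rest on 9 to 11 counts.

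Each mouse was then described over all markers, with each gene standardized to its mean and SD over the 8 mice. WT Old mouse 1 averaged -0.93 SDs and held the lowest level of 5 markers. WT Old mouse 4 averaged -0.87 and held the lowest of 3. WT Old mice 2 and 3 averaged 0.28 and 0.34, within the range of the C2-/- Old mice, which averaged -0.34, 0.43, 0.88 and 0.21. C2-/- Old mouse 3 was above the mean of the 8 for 9 of the 10 markers and held the highest level of Cd68, Mrc1, Cd163 and Trem2. The summed level of the 10 markers was 59.4, 96.7, 95.3 and 60.4 CPM in WT Old and 87.7, 91.7, 114 and 96.4 CPM in C2-/- Old mice. The WT Old mice thus formed a low and a high pair, and the high pair was within the C2-/- Old range. Without Lyz2, whose reads are uncertain, the sums were 46.4, 60.7, 66.5 and 44.7 CPM in WT Old and 64.2, 68.4, 79.4 and 73.7 CPM in C2-/- Old mice, and only WT Old mouse 3 was within the C2-/- Old range. Much of these sums was Axl, which fibroblasts and endothelial cells also make and which did not overlap by itself. Axl gave 27.8, 20.5, 31.4 and 19.5 CPM of the WT Old sums and 37.2, 32.4, 35.4 and 37.9 CPM of the C2-/- Old sums.

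**Figure D3:**
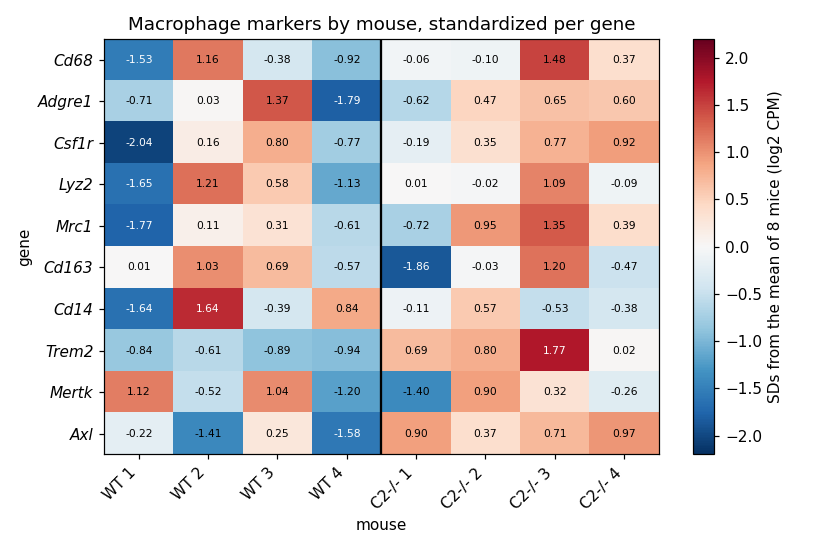
Standardized log2 CPM of the 10 macrophage markers (rows) in each mouse (columns, numbered replicates), as SDs from the mean of the 8 mice; red is above and blue below that mean. WT Old mouse 1 is lowest for 5 markers and C2-/- Old mouse 3 highest for 4, and Trem2 is the row most evenly split by the line between the genotypes.

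Markers were also compared pair by pair across the 8 mice. Of 45 pairs, 36 had a positive Pearson correlation of log2 CPM, and the median r was 0.43. By exact permutation 7 pairs had p under 0.05, and 0 pairs remained after Benjamini-Hochberg adjustment over the 45. Cd68 and Lyz2 were the closest pair (r = 0.90, exact permutation p = 0.00404, adjusted 0.091; Spearman rho = 0.76, p = 0.0368, adjusted 0.414). Without the 2 mice farthest from the median of Cd68 their r was 0.80. Csf1r and Mrc1 followed (r = 0.89, exact permutation p = 0.00313, adjusted 0.091, and rho = 0.79, p = 0.0279, adjusted 0.414), with an r of 0.65 without the 2 farthest mice. For the other pairs with p under 0.05, the 2 mice farthest from the median of the first gene named were left out. Then r fell from 0.81 to 0.08 for Csf1r with Lyz2, from 0.77 to 0.29 for Cd68 with Mrc1 and from 0.73 to 0.40 for Cd68 with Csf1r. It stayed high for Lyz2 with Mrc1 (0.76 and 0.71) and for Adgre1 with Csf1r (0.75 and 0.85). Adgre1 with Csf1r had a rho of 0.90 (exact permutation, adjusted p = 0.205). As deviations from the genotype means, r was 0.91 for Cd68 with Lyz2 and 0.85 for Csf1r with Mrc1. Mrc1 had the highest median r with the other 9 markers, 0.62, while Cd14 had 0.09 and Mertk -0.00.

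**Figure D4:**
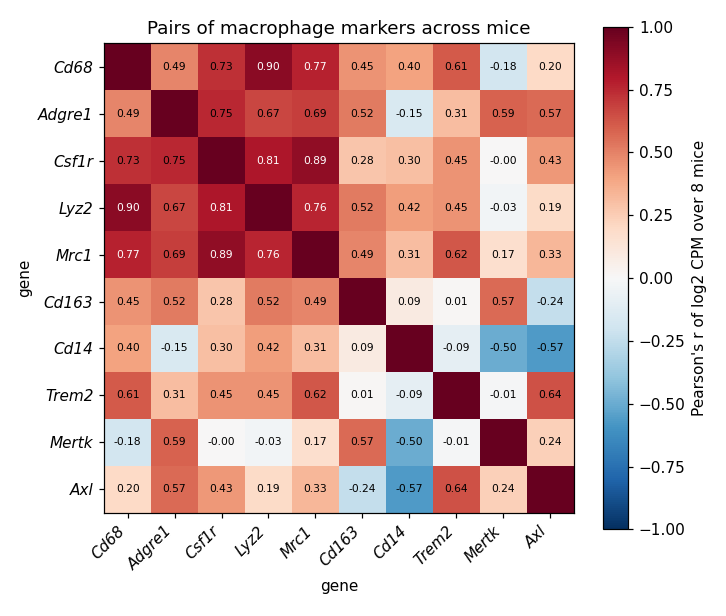
Pearson's r of log2 CPM over the 8 mice for each pair of the 10 macrophage markers (both axes), from blue (-1) to red (1). The pairs among Cd68, Csf1r, Lyz2 and Mrc1 have r from 0.73 to 0.90, and Cd14 and Mertk have the lowest median r with the others; pairs with Trem2 or Axl include the difference between genotypes.

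The 10 genes outside the list that followed the mean of the markers most closely over the 8 mice were Rnase4 (r = 0.95), Mmp19, Cyfip1, Ctss and F13a1 (each 0.94), and Atp10a, Clec4a1, Myo1c, Fcrls and Nucb2 (each 0.93). They were picked by r, so r is a description. Ctss, a lysosomal protease of phagocytes, was at 0.941 to 2.81 CPM in WT Old and 2.12 to 3.33 CPM in C2-/- Old muscle. F13a1, the A subunit of coagulation factor XIII and a gene of resident macrophages, was at 4.16 to 8.63 and 7.57 to 13.2 CPM. Neither differed after adjustment (edgeR adjusted p = 0.968 for Ctss and 0.904 for F13a1).

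None of the ligands and partners of the marker receptors passed the test. Of 11 genes, 9 were tested, 7 had a log2 fold change above 0, against 45.8% of all genes, and 0 had an unadjusted p under 0.05. Without WT Old mouse 2, an alternative chosen after seeing the data, 9 of 10 tested were above 0 and 2 had an unadjusted p under 0.05. Of all genes, 49.5% were then above 0 and 4.05% were higher at that p. Csf1, the ligand of Csf1r, was at 7.37 to 10.9 CPM in WT Old and 10.1 to 13.3 CPM in C2-/- Old muscle (log2 fold change 0.28, edgeR adjusted p = 0.968). Il34, its second ligand, had a log2 fold change of 0.30 (edgeR adjusted p = 0.968). Gas6, the ligand of Axl and Mertk, was abundant, at 123, 102, 148 and 109 CPM in WT Old mice and 131, 105, 105 and 121 CPM in C2-/- Old mice. Its log2 fold change was -0.06 (interval -0.37 to 0.25) while that of its receptor Axl was 0.53. Pros1, a further ligand of Mertk, had a log2 fold change of 0.03.

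Tyrobp, the adaptor through which Trem2 signals, was at 1.2, 3.83, 1.83 and 1.56 CPM in WT Old and 1.89, 1.82, 2.77 and 2.15 CPM in C2-/- Old mice. The groups overlapped fully, with a log2 fold change of 0.04 (interval -0.75 to 0.82), beside 1.49 for Trem2. Without WT Old mouse 2, the highest for Tyrobp, it was 0.50. For the partners of Cd14, Tlr4 had a log2 fold change of 0.15 and Lbp of 0.19. For the Cd163 pathway, haptoglobin (Hp) had 0.25 and the haem-degrading enzyme Hmox1 had -0.24. Hmox1 was at 24.9 CPM in WT Old mouse 2, 5.19 to 6.41 CPM in the other WT Old mice and 7.87 to 10.8 CPM in C2-/- Old mice, and without WT Old mouse 2 its log2 fold change was 0.63 (edgeR adjusted p = 0.421). Tyro3 and Ly96 were below the filter and were not tested.

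Beyond the 10 markers, 65 genes of the macrophage pathway lists, ligands included, gave 44 tested genes, of which 26 had a log2 fold change above 0 and 18 below, with a median of 0.09. At an unadjusted p under 0.05 there were 4, all higher in C2-/- Old muscle, and 0 lower, beside 3.38% and 1.91% of all genes. Without WT Old mouse 2, 47 genes of these lists were tested, 37 had a log2 fold change above 0 and 10 were higher at that p, 0 of them after adjustment, while 49.5% of all genes were above 0 and 4.05% were higher at that p. The lists were recounted without this mouse alone, which was picked after seeing the data. Leaving out other mice moved the median of the 10 markers both ways, from 0.13 without WT Old mouse 1 to 0.48 without WT Old mouse 3. With all 8 mice the genes at that p were Siglec1, Msr1, F13a1 and Gpnmb. Siglec1, a sialic acid receptor of resident macrophages, was at 0.0386, 0.292, 0.56 and 0.253 CPM in WT Old mice and 0.871, 0.93, 0.745 and 0.797 CPM in C2-/- Old mice, without overlap, and the WT Old values are of 1, 8, 15 and 7 counts. Its log2 fold change was 1.53 (SE 0.52, edgeR adjusted p = 0.779). Msr1, the scavenger receptor for modified lipoproteins, was also at 1.53 (edgeR adjusted p = 0.91) with overlapping groups. Gpnmb, a glycoprotein of lipid-laden macrophages, was at 1.34 to 4.85 CPM in WT Old and 3.75 to 6.56 CPM in C2-/- Old mice (log2 fold change 0.86, edgeR adjusted p = 0.918).

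By list, the other macrophage genes had 15 tested members, 10 higher and 5 lower, while 45.8% of all genes had a log2 fold change above 0. In that list the transcription factor Maf had a log2 fold change of 0.30 (edgeR adjusted p = 0.968). Maf was at 77.4 to 170 CPM in WT Old and 157 to 199 CPM in C2-/- Old muscle, above every marker. The cells that made it were not tested. The resident macrophage genes had 5 of 7 higher, F13a1 with a log2 fold change of 0.66 and Stab1 with 0.36. The genes of lipid-associated macrophages, the state in which Trem2 is known to act, were split, with 4 of 8 higher. Without WT Old mouse 2, picked after seeing the data, 7 of 8 were higher, while 49.5% of all genes were above 0. Among them, with all 8 mice, Cd9 had a log2 fold change of 0.28, Ctsd of -0.24 and Lpl of -0.15. Ctsd, at 609 to 1218 CPM in WT Old muscle, and Lpl, at 290 to 421 CPM, were far above every marker. The cells that made them were not tested. Few genes of activation passed the filter on low counts: 2 of 9 inflammatory genes and 3 of 8 genes of alternative activation were tested, and all 5 had a log2 fold change below 0 with no unadjusted p under 0.05. Nos2 was at -0.17, and Il4ra, the interleukin-4 receptor, at -0.35.

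Markers of other cells were read beside the macrophage markers. The 9 fibroblast genes were higher in C2-/- Old muscle in 9 of 9 tested, 4 with an unadjusted edgeR p under 0.05 and 0 after adjustment. Of all genes, 45.8% had a log2 fold change above 0 and 3.38% were higher at that p. Their summed level was 439, 370, 508 and 377 CPM in WT Old and 564, 603, 751 and 671 CPM in C2-/- Old mice, without overlap, as for Trem2 and Axl. Collagen Col1a1 was at 22.1 to 70.7 CPM in WT Old and 87 to 159 CPM in C2-/- Old muscle, with a log2 fold change of 1.30 (edgeR adjusted p = 0.608). Col3a1, Dcn, Dpt and Lum also did not overlap, which makes 5 of 9 against 2.03% of all genes. Of the 7 endothelial genes, 4 had a log2 fold change above 0 and 3 below, with a median of 0.00. Their summed level was 232 to 337 CPM in WT Old and 225 to 305 CPM in C2-/- Old muscle. The part of fibroblasts and endothelial cells in the level of Axl was not tested.

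Of the 8 pan-leukocyte genes 7 had a log2 fold change above 0, against 45.8% of all genes. Only Laptm5 had an unadjusted edgeR p under 0.05 (log2 fold change 0.38, edgeR adjusted p = 0.896), and 3.38% of all genes were higher at that p. Their summed level was 15.4 to 31.9 CPM in WT Old, with WT Old mouse 2 the highest, and 22.7 to 27 CPM in C2-/- Old muscle. Without that mouse 8 of 8 were above 0 and 5 had an unadjusted p under 0.05. Of all genes, 49.5% were then above 0 and 4.05% were higher at that p. The 6 tested neutrophil genes went the other way, 4 of them with an unadjusted p under 0.05, beside 1.91% of all genes, among them Cxcr2 (log2 fold change -1.79) and S100a9 (-2.66). Without WT Old mouse 2 the values were -0.74 and -0.44, and 0 neutrophil genes had such a p. Their list was at 2.88 to 60 CPM in WT Old and 2.08 to 7.14 CPM in C2-/- Old muscle, with WT Old mouse 2 at the top. Of the T and NK cell genes 0 of 8 passed the filter, and their summed level was 0.0362 to 0.365 CPM in WT Old and 0.409 to 1.25 CPM in C2-/- Old muscle, without overlap. The lowest of these sums, in WT Old mouse 4, was below the detection floor of 0.109 CPM in that mouse, so the sums are too low to compare. Tendon genes were at 59.5 to 195 CPM in WT Old and 99 to 273 CPM in C2-/- Old muscle, and adipocyte genes at 6.21 to 23.8 and 10.6 to 41.8 CPM. Their part in the macrophage markers was not tested.

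**Figure D5:**
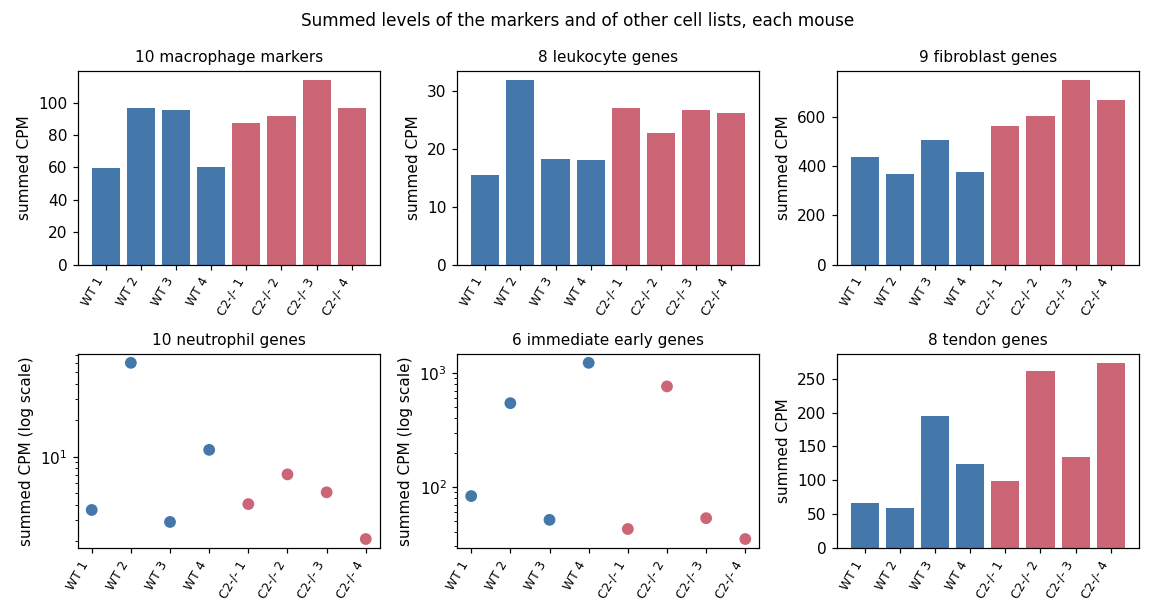
Summed CPM in each mouse (x axis, numbered replicates) of the 10 macrophage markers and of leukocyte, fibroblast, neutrophil, immediate early and tendon genes; the neutrophil and immediate early panels have log axes and points, the others linear axes and bars from 0. Fibroblast sums do not overlap between genotypes, macrophage sums do, and WT Old mouse 2 stands out for neutrophil genes.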

How the data were processed

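RNA of 8 TA muscles was enriched by oligo(dT) and sequenced from DNA nanoballs. The authors aligned reads to GRCm38.p6 with HISAT and counted them with featureCounts, and the submitters' processing notes also name Bowtie2 and DESeq2. The deposited table gives estimated counts per gene, of which 5.5 to 6.53% per mouse were not whole, and these were rounded. The deposited TPM, made by the authors, served for levels between genes. The authors' fold changes, p and q-values were left out, as were 8 columns of FPKM.

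Of 16687 rows, 16686 had a gene and counts, and 24 symbols altered by a spreadsheet were restored. CPM were computed on the TMM-scaled library size. The genotypes were compared with edgeR 4.0.16 (R 4.3.3) by the quasi-likelihood test, with TMM factors of 0.929 to 1.03, filterByExpr and Benjamini-Hochberg adjustment over 12542 genes. limma 3.58.1 and DESeq2 1.42.0 were alternatives. Single levels were tested by two-sided exact permutation, and pairs on log2 CPM with a prior count of 2. The script was tested on simulated data. Depth was 25425993 to 29747692 counts per mouse. Each mouse was 1 replicate in these tests. The edgeR p-values set a difference between genotypes against a spread between mice that is estimated partly from other genes.

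Named were all markers and ligands, and of each other list the 2 smallest p, the 2 highest means and genes without overlap. One gene that this rule names is not reported here. The markers and lists were chosen with earlier results of these data known. The age of 22 months is that of the age label, and the text on animal housing gives another.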

Additional observations from a re-analysis of the deposited data

Results flagged for a closer look

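In groups of 4 mice, a highest or lowest value was looked at again where its gap to the nearest mouse, divided by the range of the group, was above Dixon's 95% critical value. Chance gives such a gap in about 1 in 20 groups, and 44 groups of the markers, their ligands and partners and Mybpc2 were checked, of which 3 were past it. Lyz2 was at 34.6 CPM in C2-/- Old mouse 3, against 22.7 to 23.5 CPM in the other C2-/- Old mice. Mybpc2 was at 38.3 CPM in the same mouse, against 3.85 to 4.35 CPM in the others of its group. Hmox1 was at 24.9 CPM in WT Old mouse 2, against 5.19 to 6.41 CPM in the other WT Old mice.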

How the results depend on the processing

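No marker had an adjusted p under 0.05 under any setting run. Trem2 kept an unadjusted p under 0.05 in all 16 alternatives that tested it (log2 fold change 1.16 to 1.67), and Axl in 16 of 17 (0.32 to 0.67). All genes called numbered 4, against 38 with DESeq2, 2 without the 3 mice high in immediate early genes, and 4 to 7 with each mouse left out, with 7 without WT Old replicate 2. With at least 10 counts in every mouse, 1 marker had an unadjusted p under 0.05, because Trem2 and Adgre1 were not in that fit. Mean differences changed sign for 4 markers. Adgre1 was at -0.19 without the 3 mice and -0.03 to 0.75 with each mouse left out, with -0.03 without WT Old mouse 4. Lyz2 was at -0.04 to 0.45, below 0 without WT Old mouse 1 and at -0.01 without C2-/- Old mouse 3. Cd14 was at 0.49 without the 3 mice, and -0.79 to 0.05 with each mouse left out. Mertk was at -0.55 without the 3 mice, 0.02 with voom sample quality weights and -0.23 to 0.05 with each mouse left out, above 0 without WT Old mice 1 or 3 (0.03 each) or C2-/- Old mouse 1 (0.05). Without the 3 mice Mybpc2 had an adjusted p of 0.11. The cause was not tested. Replicate numbers did not pair the mice: deviations of mice with the same number correlated at 0.27, 0.04, -0.05 and 0.02, and 1 of 4 was closest to its own number. With the replicate block 4 genes were called, and 3 markers (Mrc1, Trem2 and Axl) had an unadjusted p under 0.05. Counting error alone gives a CV of 32.4% for Trem2 in WT Old muscle.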

Other observations

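B cell and dendritic genes were sparse. Cd79a, part of the B cell receptor, was at 0.54, 0.219, 0.224 and 0.217 CPM in WT Old mice and at 2.57, 1.08, 0.106 and 0.763 CPM in C2-/- Old mice (log2 fold change 1.90, edgeR adjusted p = 0.884). Blnk, the other B cell gene tested, had a log2 fold change of -0.04. C2-/- Old mouse 3, the highest for Trem2, was the lowest of the 8 for Cd79a. Ccr7, a chemokine receptor of migrating dendritic and T cells, had 0, 3, 0 and 1 counts in WT Old mice and 5, 10, 11 and 7 counts in C2-/- Old mice. Its groups did not overlap, and it was below the filter for testing. The 2 dendritic genes that were tested, Cd209a and Zbtb46, had log2 fold changes of 0.32 and -0.03, with overlapping groups. Fcer1a of mast cells had 0 or 1 counts in each WT Old mouse and 1 to 3 counts in each C2-/- Old mouse, too few to read, while the abundant mast cell protease Mcpt4 had a log2 fold change of 0.00.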
